A study of Homo sapiens with 12 samples.

Results

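The regions described here are the peaks of chromosome 13 in 9 lists of sites where HA-tagged dCas9 was pulled down in HEK 293T, a line derived from human embryonic kidney. All rows on chromosome 13 were taken, 1043 peaks of 58042 in all lists, and those in the stretch from 64434121 to 91280891 (hg19, counted from 1) were set against the rest of the chromosome. The stretch held 311 of these peaks and the rest of chromosome 13 held 732. Each library came from cells transfected with dCas9 and 1 single guide RNA (sgRNA) and collected 3 days later. The HA tag was precipitated from chromatin sheared to about 300 bp and the DNA was sequenced (ChIP-seq), to find where each guide brings dCas9 besides its target. For sgRNA1 to sgRNA3 there were replicates 1 and 2. Only 1 library was made for each of sgRNA4, sgRNA5 and sgRNA6, whose values therefore have no replicate error. All 9 libraries share the cell line, the dCas9 protein and the antibody. The other 3 samples of the 12 described, among them dCas9 without a guide, were not analysed here, so the pull-down that needs no guide is unknown.

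The protein dCas9 is a Cas9 that no longer cuts DNA but still binds where the guide pairs with DNA beside a short protospacer adjacent motif. A short match next to that motif can be enough for transient binding, and open chromatin is known to be bound more readily than closed chromatin. Chromosome 13 is acrocentric, with a short arm of repeated DNA, and the middle of its long arm is known as one of the gene-poor parts of the human genome. No hg19 annotation was used here, so the gene content of the stretch was not checked and its peaks are named by position. All positions below are on chromosome 13 of hg19 unless another chromosome is named.

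The edges of the stretch are the outer ends of the chromosome 13 peaks of sgRNA1 replicate 1, so the stretch was chosen by the measured peak positions of that list. The stretch was also proposed with the unshared sgRNA2 replicate 1 peaks in view. Counts of peaks inside it are therefore given as a description, with no test. It is 26.8 Mb long, which is 28.1% of the 95.4 Mb between the first and the last chromosome 13 peak of any list.

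Nearly all chromosome 13 peaks of the replicate 1 lists lay in the stretch. With sgRNA1 these were 12 of 12 peaks, with sgRNA2 4 of 5 and with sgRNA3 2 of 2, together 18 of 19. The 12 peaks of sgRNA1 lay inside by construction, since they set the edges, so that no interval is given for them or for the sum. Without them, 6 of 7 lay there (85.7%). The 4 sgRNA2 peaks among these were in view when the stretch was proposed, so this share has no interval either. The lists of the same guides in replicate 2 had peaks both inside and outside the stretch. All 3 had a larger share inside than its 28.1% of length, which the sgRNA1 and sgRNA2 intervals include and that of sgRNA3 does not. There the stretch held 14 of 34 peaks with sgRNA1 (41.2%, 24.6 to 59.3), 8 of 16 with sgRNA2 (50%, 24.7 to 75.3) and 7 of 11 with sgRNA3 (63.6%, 30.8 to 89.1). In the long lists its share lay near its share of length: 63 of 236 peaks with sgRNA4 (26.7%, 21.2 to 32.8), 66 of 203 with sgRNA5 (32.5%, 26.1 to 39.4) and 135 of 524 with sgRNA6 (25.8%, 22.1 to 29.7). All 9 lists had peaks in the stretch, that of sgRNA1 replicate 1 by construction. These intervals cover counting error only, and the peaks of a list are not independent replicates.

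**Figure D1:**
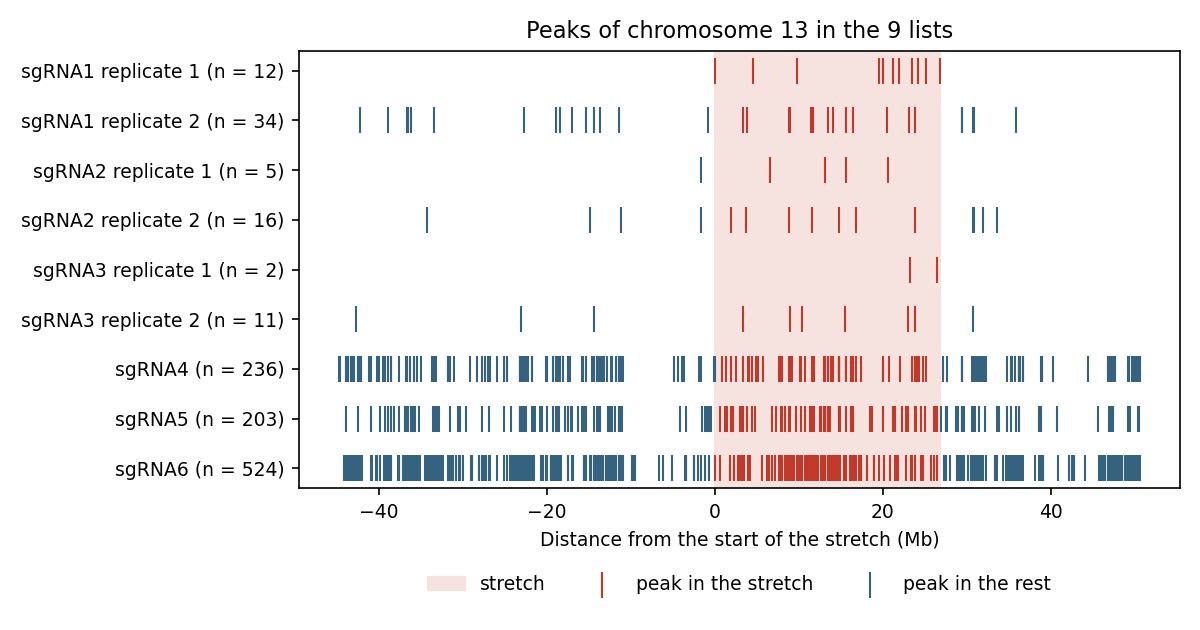
Each vertical tick is a chromosome 13 peak, at its distance in Mb from the start of the stretch, with 1 row per list and the number of chromosome 13 peaks in brackets. Ticks in the shaded stretch are red and those in the rest are blue; the replicate 1 lists have 18 of their 19 ticks in the shaded part, while the other lists have ticks on both sides of it.

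**Figure D2:**
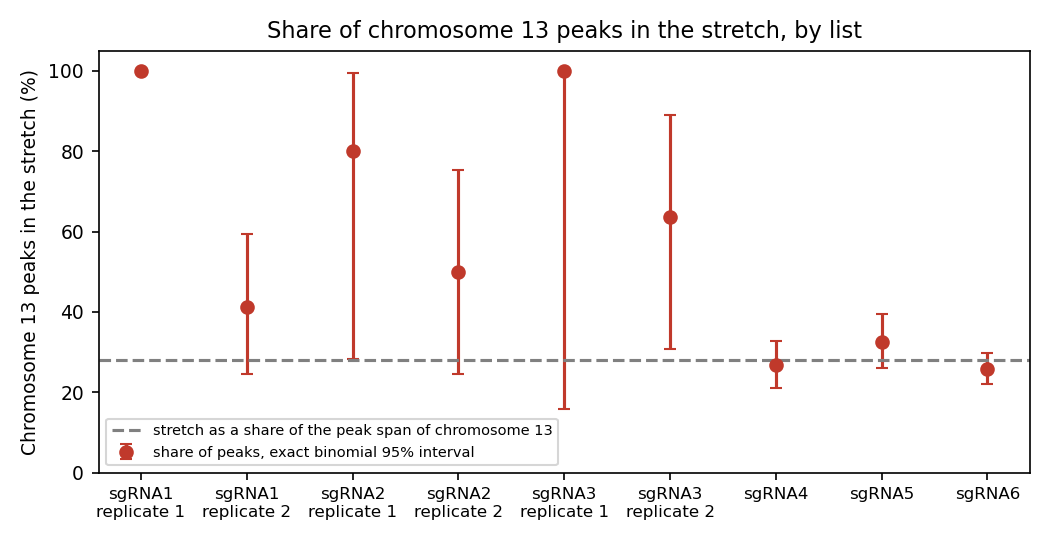
Share of each list's chromosome 13 peaks that lay in the stretch, in percent, with exact binomial 95% intervals except for sgRNA1 replicate 1, whose peaks set the edges; the dashed line is the stretch's 28.1% share of the chromosome 13 peak span. The replicate 1 points lie between 80% and 100%, that of sgRNA1 by construction, those of sgRNA4, sgRNA5 and sgRNA6 between 25.8% and 32.5%. The sgRNA2 replicate 1 peaks were in view when the stretch was proposed, so their interval is not independent of the choice.

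Chromosome 13 as a whole held 12.5% of the sgRNA1 replicate 1 list, 8.62% of that of sgRNA2 and 4.88% of that of sgRNA3. In replicate 2 it held 2.66%, 2.81% and 2.88% of the lists of sgRNA1, sgRNA2 and sgRNA3. Its share was 1.73% with sgRNA4, 2.43% with sgRNA5 and 1.56% with sgRNA6, against 3.23% of the summed peak spans of all chromosomes. Peak density within a list shows the same order. In sgRNA1 replicate 1 the stretch held 0.447 peaks per Mb, and all other chromosomes held 0.0294 per Mb. In sgRNA2 replicate 1 these densities were 0.149 and 0.0186 per Mb, and in sgRNA3 replicate 1 0.0745 and 0.0137 per Mb.

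The replicate 2 lists differed less between the stretch and other chromosomes. Densities there were 0.521 per Mb in the stretch and 0.436 elsewhere with sgRNA1, 0.298 and 0.194 with sgRNA2, and 0.261 and 0.130 with sgRNA3. The rest of chromosome 13 was sparser in these lists, with 0.292 (sgRNA1), 0.117 (sgRNA2) and 0.0584 (sgRNA3) per Mb. In the long lists the stretch was sparser than other chromosomes, with 2.35 peaks per Mb against 4.70 for sgRNA4, 2.46 against 2.85 for sgRNA5 and 5.03 against 11.6 for sgRNA6. The rest of chromosome 13 was sparse there too, with 2.52 (sgRNA4), 2.00 (sgRNA5) and 5.68 (sgRNA6) per Mb. Chromosomes 4 and 18, also known as gene-poor, held 2.03 and 1.77 per Mb with sgRNA4, 1.29 and 1.26 with sgRNA5, and 5.02 and 5.25 with sgRNA6. The stretch was denser than both with sgRNA4 and sgRNA5, and near both with sgRNA6. In replicate 2 these chromosomes held 0.168 and 0.180 per Mb with sgRNA1, 0.115 and 0.141 with sgRNA2, and 0.0787 and 0.128 with sgRNA3. The stretch was denser than both in each of these lists.

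In the replicate 1 lists, chromosomes 4 and 18 held few peaks. For sgRNA1 they held 4 peaks each, 0.0210 and 0.0513 per Mb. In sgRNA2 replicate 1 they held 0 and 3 peaks (0 and 0.0385 per Mb), and in sgRNA3 replicate 1 they held 2 and 3 (0.0105 and 0.0385 per Mb).

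To see whether other parts of the genome were as crowded, the densest window of the same 26.8 Mb length was found on each chromosome, a comparison chosen after the values were seen. In sgRNA1 replicate 1 the edges were set by the 12 peaks themselves, so their number is only described: no window on the 23 other chromosomes held more than 3, a number reached on 7 of them. In sgRNA2 replicate 1 the stretch held 4 peaks and the densest window elsewhere 3. Those 4 peaks were in view when the stretch was proposed, so this number too is only described. In sgRNA3 replicate 1 the 2 peaks of the stretch were matched on 6 other chromosomes. The comparison sets 1 fixed stretch against the best-placed window of each other chromosome, so being matched does not show a lack of crowding.

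In replicate 2 and the long lists, 11 to 22 other chromosomes had a window with at least as many peaks as the stretch. The 14 peaks of sgRNA1 replicate 2 were matched or passed on 16 other chromosomes, where the densest window held 48. For sgRNA2 replicate 2 the corresponding numbers were 8 peaks, 17 chromosomes and 22, and for sgRNA3 replicate 2 they were 7, 11 and 21. With sgRNA4 and sgRNA6, 22 of the 23 other chromosomes had a window with at least as many peaks, and with sgRNA5 20 did.

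The scores of the sgRNA1 replicate 1 peaks of the stretch, the authors' peak-caller values, lay between 50.1 and 70.9. Their median was 57.9, against 55.1 for the 84 peaks of that list on other chromosomes. Their median width was 524.5 bp, against 460 bp elsewhere in the list. The highest lay at the proximal edge, at 64434121 to 64435332, with a width of 1212 bp, a score of 70.9 and rank 16 of 96. The other 11 were 444 to 634 bp wide.

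Most of the sgRNA1 replicate 1 peaks sat in the distal part of the stretch. Beyond 83 Mb, a point chosen after the positions were seen, lay 9 of the 12, in 30.8% of the length of the stretch. They began at 83953179 (score 54.5, rank 57), 84407531 (54.0, rank 60) and 84440362 (59.5, rank 34). The last of these overlapped a sgRNA4 peak, and 0.0328 Mb separated its start from that of its neighbour, the smallest gap among the 12. Further along were 85609345 (57.1, rank 43), which overlapped a sgRNA5 peak, 86328532 (50.1, rank 96) and 87890831 (62.0, rank 26). The most distal were 88670708 (51.9, rank 75), 89557658 (61.7, rank 27) and the edge peak at 91280442 to 91280891 (61.5, rank 30). The 2 peaks between the proximal edge and 83 Mb began at 68927233 (58.7, rank 36) and 74229695 (52.0, rank 74).

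In sgRNA2 replicate 1, the stretch held peaks at 70949661 to 70950480 (score 61.3, rank 15 of 58), 77586941 to 77587643 (57.9, rank 24), 80020234 to 80020824 (57.4, rank 25) and 85029364 to 85030047 (54.7, rank 37). None of these overlapped a peak of another guide. The fifth chromosome 13 peak of the list lay outside, at 62741369 to 62743865, with a width of 2497 bp, a score of 56.3 and rank 29. It was the only chromosome 13 peak of the 3 replicate 1 lists that was also in its guide's replicate 2 list. In sgRNA3 replicate 1 the peaks lay at 87722518 to 87723077 (55.0, rank 32 of 41) and 90872018 to 90872564 (50.1, rank 41, the lowest of the list).

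Replicates did not share peaks inside the stretch. Of the replicate 1 peaks there, in a stretch proposed with some of them in view, 0 of 12 with sgRNA1, 0 of 4 with sgRNA2 and 0 of 2 with sgRNA3 overlapped a replicate 2 peak of the same guide by at least 1 bp. Over all chromosomes, such overlap was seen for 36.5% (sgRNA1), 27.6% (sgRNA2) and 41.5% (sgRNA3) of the replicate 1 list. The exact binomial upper bounds per guide were 26.5% (sgRNA1), 60.2% (sgRNA2) and 84.2% (sgRNA3). Those of sgRNA2 and sgRNA3 include their genome-wide shares, while that of sgRNA1 lies below its 36.5%. The sgRNA1 peaks set the edges and the sgRNA2 peaks were in view, so these counts only describe the chosen stretch. From the other side, 0 of the 29 replicate 2 peaks in the stretch overlapped a replicate 1 peak. With 3 counts as the limit that a count of 0 allows, the share could be up to 10.3%. The genome-wide share was 2.74% (sgRNA1), 2.81% (sgRNA2) and 4.45% (sgRNA3). The count from this side is thus not distinguishable from the background at this number of peaks.

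The nearest replicate 2 peak of the same guide was 314 to 2599 kb away with sgRNA1, 842 to 3293 kb with sgRNA2 and 257 to 2547 kb with sgRNA3. With 14, 8 and 7 replicate 2 peaks of sgRNA1, sgRNA2 and sgRNA3 in 26.8 Mb, these lists are sparse, and whether such distances are longer than elsewhere was not tested. Counting any other list, the nearest peak was at 0 kb (overlap) to 140.2 kb for sgRNA1, 3.09 to 55.2 kb for sgRNA2 and 47.6 to 89.3 kb for sgRNA3. In replicate 1, 2 of the 12 sgRNA1 peaks of the stretch (16.7%, exact interval 2.09 to 48.4) overlapped a peak of another guide. With sgRNA2 it was 0 of 4 and with sgRNA3 0 of 2. Genome-wide, the share of replicate 1 peaks found with another guide was 25.0% (sgRNA1), 74.1% (sgRNA2) and 31.7% (sgRNA3). The sgRNA1 interval holds its genome-wide share. The 4 unshared sgRNA2 peaks were in view when the stretch was proposed, so their lack of overlap is a description of the choice.

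In replicate 2, peaks of the stretch were shared more often, 21 of 29 (72.4%, exact interval 52.8 to 87.3). By list, 10 of 14 peaks (sgRNA1), 7 of 8 (sgRNA2) and 4 of 7 (sgRNA3) overlapped another guide, where 87.6%, 94.0% and 81.7% of those lists did genome-wide. The highest sgRNA1 replicate 2 peak of the stretch lay at 77902809 to 77904453 (score 120.2, rank 68 of 1278) and was found with sgRNA4 (189), sgRNA5 (231) and sgRNA6 (693). Next came peaks at 67804840 to 67805765 (85.9, rank 213) and 73355218 to 73356677 (82.2, rank 267), both found with sgRNA3 and with all 3 long lists. In the rest of the chromosome its highest peaks lay at 95253624 to 95254899 (93.4, rank 154), 45491859 to 45492753 (93.2, rank 155) and 49106549 to 49107428 (81.3, rank 273).

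With sgRNA2 replicate 2, the highest peak of the stretch lay at 88323089 to 88324661 (score 76.7, rank 91 of 570) and was found with all 5 other guides. A close second at 88328608 to 88329894 (76.5, rank 93) was found with sgRNA4 alone, and the third at 76056458 to 76057071 (59.4, rank 287) with 4 guides. Outside the stretch, the highest peak of the list, at 95253608 to 95254792 (104.9, rank 21), scored above these. The next, at 96329314 to 96330015 (74.0, rank 107) and 95200918 to 95202719 (67.6, rank 164), scored below 76.5. With sgRNA3 replicate 2, the highest peak of the stretch, at 74784877 to 74785782 (71.5, rank 97 of 382), overlapped no other list. It was followed by 88324117 to 88324625 (61.7, rank 177), found with 4 guides, and 79967335 to 79968461 (56.8, rank 246), found with sgRNA3 alone. In the rest they lay at 95200832 to 95202690 (97.9, rank 30), 21714630 to 21715183 (55.3, rank 269) and 50018073 to 50018872 (53.1, rank 316).

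The long lists held strong peaks in the stretch. With sgRNA5 the peak at 67804020 to 67805754 scored 515 and ranked 10 of 8346. The same region held the highest sgRNA6 peak of chromosome 13, at 67803621 to 67805926 (1413, rank 53 of 33611), and a sgRNA4 peak of rank 8063 of 13660 (68.7). With sgRNA4 the highest was at 77899794 to 77901612 (948, rank 22 of 13660), where sgRNA5 had 2 peaks (114, rank 972, and 71.3, rank 3464) and sgRNA6 also had 2 (90.4, rank 16729, and 85.7, rank 17734). Ranks in lists of different length show no change between guides.

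Other high peaks of the long lists in the stretch were mostly shared. With sgRNA4 they lay at 88323225 to 88325080 (368, rank 181) and 74707538 to 74709741 (271, rank 395), and with sgRNA5 at 88323279 to 88324695 (244, rank 75) and 77903214 to 77904390 (231, rank 89). The sgRNA6 peaks at 76054650 to 76056918 (916, rank 161) and 76111463 to 76112751 (857, rank 177) followed. The second of these was found with sgRNA1 alone among the other guides, and the rest with 2 to 5.

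In the rest of chromosome 13, the highest sgRNA4 peaks were at 45914289 to 45915982 (573, rank 66), found with sgRNA5 and sgRNA6, and at 46357484 to 46358332 (327, rank 237) and 114616461 to 114617608 (286, rank 341), found with sgRNA4 alone. With sgRNA5 they were at 95200796 to 95202604 (348, rank 32), 93878628 to 93880235 (181, rank 214) and 39260613 to 39261686 (181, rank 215), all shared. With sgRNA6, peaks near the chromosome end at 114145112 to 114146214 (1372, rank 57) and 113815628 to 113817222 (1035, rank 121) were found with no other guide, unlike the third, at 95253535 to 95254778 (789, rank 226). The 9 peaks named in the stretch for the long lists all overlapped another guide, while 4 of the 9 named in the rest did not, but these are only the 3 highest per list and side. Over all peaks of these lists, the share found with another guide in the stretch and in the rest was 54.0% and 52.6% with sgRNA4, 43.9% and 58.4% with sgRNA5, and 25.9% and 28.8% with sgRNA6.

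Peaks of the stretch were wider than those in the rest of chromosome 13 with every guide that could be compared, but the difference did not pass the test after adjustment. A list entered where each side held at least 3 peaks, which left replicate 2 of sgRNA1, sgRNA2 and sgRNA3 and the 3 long lists. Median widths were 963 bp in the stretch and 697.5 bp in the rest with sgRNA1, 1272.5 and 690 bp with sgRNA2, 906 and 677 bp with sgRNA3, 802 and 661 bp with sgRNA4, 652 and 555 bp with sgRNA5, and 645 and 606 bp with sgRNA6. The mean difference was 226 ± 194 bp (SD, n = 6 guides), higher in 6 of 6 (two-sided exact sign-flip permutation test over guides, p = 0.03125, the smallest that 6 guides allow; Benjamini-Hochberg adjusted over 6 tests p = 0.188). A single test at that smallest p could not pass after adjustment over 6 tests. When single peaks were enough to compare, the wide sgRNA2 replicate 1 peak at 62741369 entered and the mean difference was 26.8 bp. Against all other chromosomes the widths of the stretch differed by 117 ± 119.5 bp, higher with 5 of 6 guides and lower with sgRNA6 (exact permutation p = 0.0938, adjusted p = 0.188); without replicate 2 this difference was 41.6 bp.

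Scores within a list showed no difference that could be told from the spread between guides. The median rank percentile (100 is the highest score of the list) was 64.5 in the stretch and 53.8 in the rest with sgRNA1, 37.9 and 61.4 with sgRNA2, and 28.1 and 23.4 with sgRNA3. It was 53.4 and 41.2 with sgRNA4, 41.3 and 49.3 with sgRNA5, and 48.5 and 47.5 with sgRNA6. The mean difference was -0.46 ± 13.4 points (SD, n = 6 guides; higher in 4, lower in 2; exact sign-flip permutation test, p = 0.969, adjusted p = 0.969), and against all other chromosomes -2.89 ± 12.0 (exact permutation p = 0.656, adjusted p = 0.788). Its sign changed under several settings.

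Peaks of the stretch were found with another guide less often than other peaks in most lists, again short of the threshold after adjustment. In the stretch and in the rest of the chromosome, the shares were 71.4% and 85% with sgRNA1, 87.5% and 87.5% with sgRNA2, 57.1% and 75% with sgRNA3, beside those of sgRNA4, sgRNA5 and sgRNA6 given above. In the whole lists of the unreplicated guides they were 53.1% (sgRNA4), 65.1% (sgRNA5) and 27.1% (sgRNA6). The mean difference from the rest was -7.90 ± 8.34 percentage points (SD, n = 6 guides; lower in 4, equal in 1, higher in 1; exact sign-flip permutation test, p = 0.125, adjusted p = 0.188). Against all other chromosomes, where replicate 1 of sgRNA1 and sgRNA2 also entered, it was -17.1 ± 16.4 points, lower with 5 of 6 guides (exact permutation p = 0.0625, adjusted p = 0.188). The sgRNA2 value of -43.0 is the mean of -79.2 in replicate 1, from 4 peaks, and -6.72 in replicate 2. Both replicate 1 lists were used in choosing the stretch, so neither this value nor the mean of -17.1 points is independent of the choice. Without replicate 1 the difference from all other chromosomes was -12.2 points (exact sign-flip permutation test over 6 guides, p = 0.03125, the smallest possible, adjusted p = 0.0938). A shared region counts for both guides that hold it, so the 6 guides are not fully independent in this measure.

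**Figure D3:**
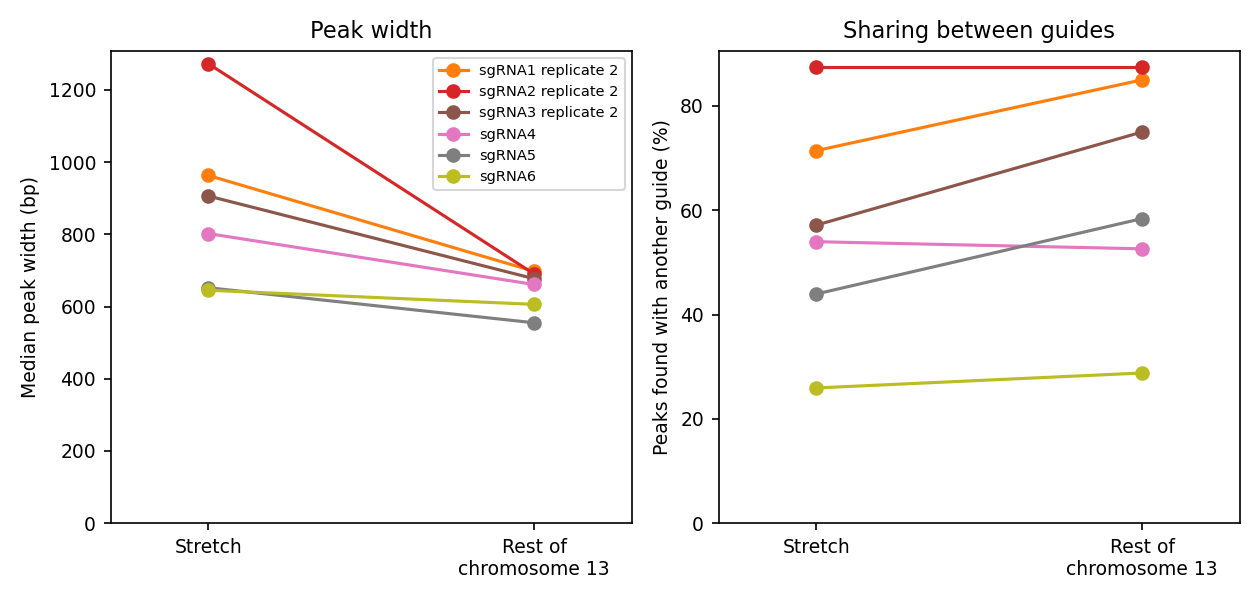
Median peak width in bp (left) and share of peaks found with another guide in percent (right), in the stretch and in the rest of chromosome 13, with 1 line per list that had at least 3 peaks on each side. Widths are higher in the stretch in all 6 lists, by 39 to 582.5 bp; sharing is lower in the stretch in 4 lists, equal in 1 and higher in 1.

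Among the long lists, sharing between pairs of guides in the stretch lay near the genome-wide share for sgRNA4 with sgRNA6. Of sgRNA4 peaks, 29 of 63 in the stretch (46.0%) and 79 of 173 in the rest (45.7%) overlapped a sgRNA6 peak, against 48.3% over all chromosomes. From the other side it was 27 of 135 (20.0%) and 81 of 389 sgRNA6 peaks (20.8%), against 20.1%. For sgRNA5 with sgRNA6, 28 of 66 (42.4%) and 67 of 137 (48.9%) sgRNA5 peaks overlapped, against 57.0%, and 29 of 135 (21.5%) and 64 of 389 (16.5%) sgRNA6 peaks, against 14.2%. Of sgRNA5 peaks, 20 of 66 (30.3%) in the stretch and 52 of 137 (38.0%) in the rest overlapped a sgRNA4 peak, against 38.2%. The corresponding sgRNA4 counts were 21 of 63 (33.3%) and 49 of 173 (28.3%), against 23.1%. The interval for sgRNA5 with sgRNA4 in the stretch, 19.6 to 42.9%, holds both other shares. With sgRNA1, 9 of 66 sgRNA5 peaks of the stretch (13.6%, exact interval 6.43 to 24.3) and 13 of 137 of the rest (9.49%, 5.15 to 15.7) overlapped. With each of sgRNA2 and sgRNA3 it was 3 of 66 (4.55%, 0.947 to 12.7) and 3 of 137 (2.19%, 0.454 to 6.27). These intervals overlap, and no genome-wide share was taken for these pairs. The shares of sgRNA4 and sgRNA6 peaks found with sgRNA1 were also higher in the stretch, 14.3% against 6.36% and 7.41% against 3.86%. Both sgRNA1 lists entered these counts, and all 12 chromosome 13 peaks of replicate 1 lie in the stretch by construction. The overlaps include those at 84440362 (sgRNA4) and 85609345 (sgRNA5). Replicate 2 of sgRNA1 was also denser there, with 0.521 peaks per Mb against 0.292 in the rest. The higher shares with sgRNA1 are thus not independent of the choice of the stretch. All pair counts rest on single libraries for sgRNA4 to sgRNA6, with no test of the differences.

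Joining overlapping peaks of all lists gave 227 regions in the stretch and 541 in the rest. In the stretch 37 regions (16.3%, exact interval 11.7 to 21.8) were found with 2 or more guides, against 120 in the rest (22.2%, 18.7 to 25.9) and 21.3% over all chromosomes. At 4 or more guides the order was the other way round, with 7 of 227 (3.08%, 1.25 to 6.25) against 9 of 541 (1.66%, 0.763 to 3.13), beside 1.93% over all chromosomes. The intervals overlap in both cases, so neither count separates the stretch from the rest. Of its 190 regions with a single guide, the 3 replicate 1 lists gave 16.

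**Figure D4:**
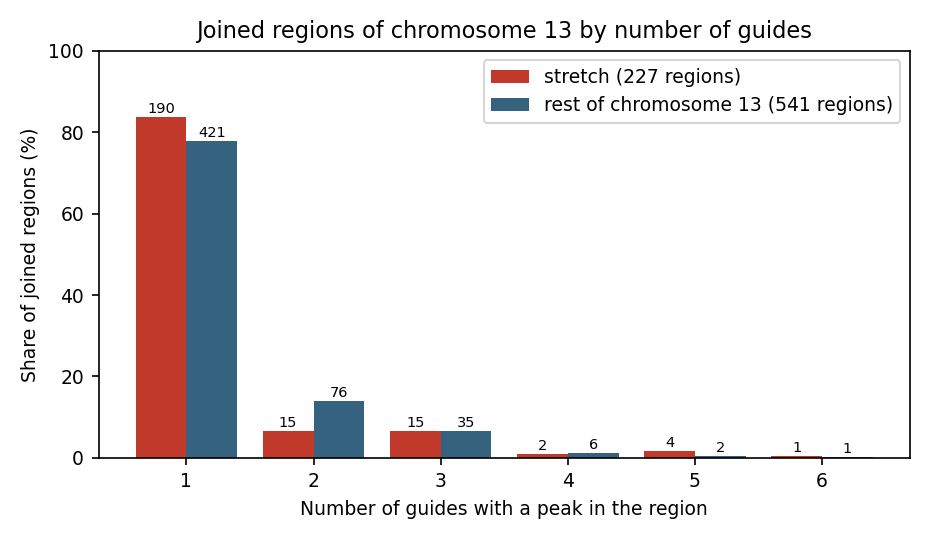
Share of the joined chromosome 13 regions, in percent, by the number of guides with a peak in them, for the stretch (red, 227 regions) and the rest (blue, 541 regions), with the number of regions above each bar. The stretch has the taller bar at 1 guide (190 regions, 83.7%, against 421, 77.8%) and the shorter one at 2 guides (15, 6.61%, against 76, 14.0%).

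Of the regions found with 4 or more guides, 7 lay in the stretch and 9 in the rest, and the 10 named below are those with the most guides. With 5 or 6 guides there were 5 regions in the stretch and 3 in the rest. At exactly 4 guides there were 2 in the stretch and 6 in the rest, and the 2 in the stretch are named because ties were settled by mean rank percentile. No replicate 1 peak was part of the 10 named regions. The region with all 6 guides in the stretch ran from 88323089 to 88326485. It scored 75.5 with sgRNA1, 76.7 with sgRNA2 and 61.7 with sgRNA3 (higher of 2 peaks) in replicate 2, and 368 (sgRNA4), 244 (sgRNA5) and 518 (sgRNA6) in the long lists. The widest single peak there, that of sgRNA6, was 2946 bp wide, while sgRNA4 had 3 separate peaks.

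A further 4 regions of the stretch were found with 5 guides. That at 76054650 to 76057071 and that at 73300881 to 73302788 lacked sgRNA3, while that at 67803621 to 67805926 and that at 73355218 to 73356859 lacked sgRNA2. The peaks in the region that began at 73300881 ranked 827 of 1278 with sgRNA1, 385 of 570 with sgRNA2, 2526 of 13660 with sgRNA4, 713 of 8346 with sgRNA5 and 15737 of 33611 with sgRNA6. In the region that began at 73355218 they ranked 267 of 1278 with sgRNA1, 275 of 382 with sgRNA3, 9992 of 13660 with sgRNA4, 2443 of 8346 with sgRNA5 and 13899 of 33611 with sgRNA6. Regions at 77902809 to 77904453 and 80054790 to 80056281 were found with sgRNA1, sgRNA4, sgRNA5 and sgRNA6. In the rest, the region at 95200796 to 95202872 was found with all 6 guides, and those at 95253535 to 95254899 and 50017745 to 50019025 with 5.

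On chromosome 13 the replicates of sgRNA1, sgRNA2 and sgRNA3 differed more from each other than these guides did within a replicate. The tests could not decide whether the guides differ. The share of chromosome 13 peaks found with another guide was 16.7% in replicate 1 and 79.4% in replicate 2 for sgRNA1, 20% and 87.5% for sgRNA2, and 0% and 63.6% for sgRNA3 (exact permutation test over 15 arrangements, p = 0.667, adjusted over 2 tests p = 0.667; the smallest p possible is 0.0667). Median widths were 524.5 and 803.5 bp for sgRNA1, 703 and 999.5 bp for sgRNA2, and 553.5 and 800 bp for sgRNA3 (the same exact permutation test, p = 0.6, adjusted p = 0.667). With the replicate number as a block, the exact permutation test gave p = 0.167 for sharing and p = 0.333 for width. The smallest p possible there is 0.167, which sharing reached, so neither form of the test could reach 0.05. Sharing was highest with sgRNA2 and lowest with sgRNA3 in both replicates. Width was highest with sgRNA2 in both, while the order of sgRNA1 and sgRNA3 changed. In all 3 guides replicate 2 had the wider and the more shared peaks. The lists of replicate 2 were also the longer ones, with 1278, 570 and 382 peaks for sgRNA1, sgRNA2 and sgRNA3, against 96, 58 and 41 in replicate 1. The part of list length in this was not tested, and read depth is unknown.

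Close to the edges, the first peaks outside the stretch on the proximal side were those of sgRNA4 at 64314661 to 64316509 (score 99.2) and 64414363 to 64415773 (53.0), the second starting 19.8 kb before the edge. The first inside, after the edge peak itself, was a sgRNA6 peak at 64491588 to 64492195 (59.0). On the distal side the last inside before the edge peak were overlapping peaks of sgRNA6 at 90920141 to 90920656 (56.7) and sgRNA5 at 90920214 to 90920673 (50.2). The first outside was a sgRNA5 peak at 91400889 to 91401392 (78.1), then a sgRNA4 peak at 91657701 to 91657986 (58.1). At the distal edge the long lists thus had no peak in the 360 kb before the edge and for about 120 kb after it.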

How the data were processed

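Peak lists of HA ChIP-seq from 9 libraries were used. Per the labels, alignment and calling used Bowtie, Bowtie2 and MACS on hg19 (the submitters' processing notes give no version); callers' settings and controls were not given in the sources used. The deposited score is the authors' MACS score per peak, at least 50 in every list; it depends on its own library and was used only within a list. Other deposited columns are the peak's start and end. Read depth is unknown. Peaks were called for each library, so replicates were compared by overlap (at least 1 bp). Whether replicates were separate cultures is not stated, so p-values reflect only differences between these libraries and may be technical.

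The members, the stretch and the named regions were chosen with earlier results of these data known. Named were all chromosome 13 peaks of replicate 1, the 3 highest-scoring peaks of the stretch and of the rest in the other 6 lists, the 10 regions found with the most guides, and the peaks at the edges. Differences were taken within a list, averaged per guide and tested by exact sign-flip permutation over guides, with Benjamini-Hochberg adjustment over 6 tests. Intervals are exact binomial (95%). The code was tested on simulated data. Python 3.11.15, numpy 2.4.6, pandas 2.3.3, scipy 1.17.1 and matplotlib 3.10.9 were used.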

Additional observations from a re-analysis of the deposited data

How the results depend on the processing

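Of 136 alternative values for 24 results, 125 kept their direction and their side of the threshold, or stayed within the set limit. Another 8 changed sign and 3 moved. For the tests among sgRNA1, sgRNA2 and sgRNA3 the value compared was p itself, which has no sign and could not reach 0.05. Their alternatives are thus among the 125 by construction, and the tally is no measure of how stable those results are. The sign changes were those of small differences that passed no test, and their cause was not tested. The score rank difference from the rest of chromosome 13 (-0.46 points) became 0.37 with the edges 1 Mb further in, 9.48 in the higher-scoring 50% of each list, 2.15 with a minimum of 1 peak, 3.995 with a minimum of 10 and 1.75 without replicate 2. That from all other chromosomes (-2.89) became 1.45 with a minimum of 10; it was -4.53 without replicate 1, 3.02 without replicate 2 and -7.24 in the higher-scoring 50%. The sharing difference from the rest (-7.90 points) became 4.84 in the higher-scoring 50%, where only 4 guides could be compared. In the same 50%, regions with 2 or more guides numbered 23 in the stretch and 59 in the rest, since fewer peaks enter. By covered length, 32.8% of the sgRNA4 peak length of chromosome 13 lay in the stretch. No alternative brought an adjusted p below 0.05. The adjusted p for width against the rest ranged from 0.0938 to 0.875. With 6 guides the smallest p is 0.03125, so 1 test at this floor could not pass after adjustment over 6 tests. Settings that left 5 guides or fewer could not reach 0.05 even before adjustment. The lack of an adjusted p below 0.05 therefore does not show that there is no difference.

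With the replicate number as a block, the exact permutation p among sgRNA1, sgRNA2 and sgRNA3 was 0.167 for sharing, the smallest that 6 arrangements allow, and 0.333 for width. Lists of the same number lay together, replicate 1 below replicate 2 in all 3 guides, but the labels tie nothing else to the number. Leaving out each list in turn, a setting chosen after the data were seen, gave p of 0.667 to 0.933 for sharing and 0.533 to 1 for width; the 85.7% of replicate 1 peaks in the stretch without sgRNA1 replicate 1 was also chosen then. With few peaks per short list, depth unknown and no library without a guide, small differences were not detectable.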
